A study of Mus musculus with 125 samples.

Results

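Tek, Tie1 and Ptprb encode the receptors and the phosphatase at the head of the angiopoietin pathway of blood vessels. The 3 genes were taken by name, by a rule that uses no measured value, out of 21900 protein-coding mouse genes. Each was read in a pair of assays. The first was the number of unique molecular identifiers (UMIs, each standing for 1 captured transcript) in single brain endothelial cells of 5 ages. The second was the presence of open-chromatin peaks at the gene or within 50 kb of it, in endothelial nuclei and in whole-tissue nuclei of 7 organs.

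Tek, also called Tie2, is the receptor tyrosine kinase that binds the angiopoietins. Angpt1, made largely by the mural cells around vessels, activates it and favours quiet, tightly joined endothelium, whereas Angpt2 is released by endothelial cells and can block or activate it depending on context. Tie1 is a related receptor that binds angiopoietins poorly on its own and acts in complexes with Tek. Ptprb, also called VE-PTP, is an endothelial receptor phosphatase that removes phosphate from Tek and associates with the junction protein VE-cadherin (Cdh5).

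The open-chromatin data (ATAC-seq, in which a transposase cuts accessible DNA) came from mice given tamoxifen at 0.015 mg/kg whose vessels then showed GFP. The driver line and the way labelled nuclei were separated are not given in the sources used here. Input lists are of input nuclei of the same tissues and of mice treated alike, which can include endothelial nuclei. Embryos (label E12) were treated at E10.5 and collected at E12.5, pups (label P6) were treated on postnatal days 1 and 3, and adults were 2 months old and treated 7 days before collection. The labels say postnatal day 6 and the protocol says day 7 for the pups. There were 37 endothelial peak lists (11 E12, 14 P6 and 12 adult) and 29 input lists (3, 16 and 10), from trunk, heart and brain at E12 and from brain, retina, heart, kidney, liver and lung later. The labels number the replicates and do not say that they were separate animals, so a p-value below measures the spread between these lists. Single cells were selected with CD31 beads from whole embryonic brain at E9.5, E12.5 and E16.5 and from cortex at P8 and in the adult, 1 library per age, so no age difference in them has a replicate check. Embryonic brain was dissociated with collagenase and cortex with a neural tissue kit. Between any embryonic library and P8 or the adult, age, tissue and dissociation thus cannot be told apart.

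Endothelial cells were taken as barcodes with at least 200 genes, at most 10% mitochondrial UMIs and at least 3 of the 6 genes Cdh5, Pecam1, Egfl7, Esam, Kdr and Cldn5, which are not among the 3 genes described. This left 6167 cells in the E9.5 library, 6552 in E12.5, 3823 in E16.5, 4901 in P8 and 3254 in the adult, 24697 of 42340 barcodes in all. The median depth per cell lay between 4823.5 UMIs (adult) and 10330 (E12.5). The headers named Cell Ranger 4.0.0 for E9.5, P8 and the adult and no version for E12.5 and E16.5, so folds between neighbouring ages are given within these sets unless said otherwise. Any 2 libraries shared at most 50 barcodes. The E16.5 matrix came without gene names here, and its rows were read in the order of the other gene tables. Across genes its levels had r = 0.975 with E12.5 in that order and 0.207 with the rows moved by 1. Markers of other cells were present in the endothelial barcodes: 7 of 7 mural markers had UMIs at every age, and their summed level was 59.8 UMIs in every 1000000 (CPM) in the E9.5 cells, 79.5 in E12.5, 145 in E16.5, 559 in P8 and 1180 in the adult. The erythroid sum lay between 3466 and 17319 CPM.

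In brain endothelial cells the 3 genes followed different courses with age. Tek and Ptprb were higher at each later age, Ptprb by far more, while Tie1 was high at E12.5 and E16.5, low at P8 and high again in the adult. The E9.5 and adult libraries differ in tissue and dissociation as well as in age. Against E9.5, the adult level was 3.51-fold for Tek, 1.62-fold for Tie1 and 49.9-fold for Ptprb. At least 2-fold higher were thus 2 of the 3 genes and none was lower. Of all 9169 genes with at least 10 CPM in either library, 35% were higher and 21.5% lower by that much.

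**Figure D1:**
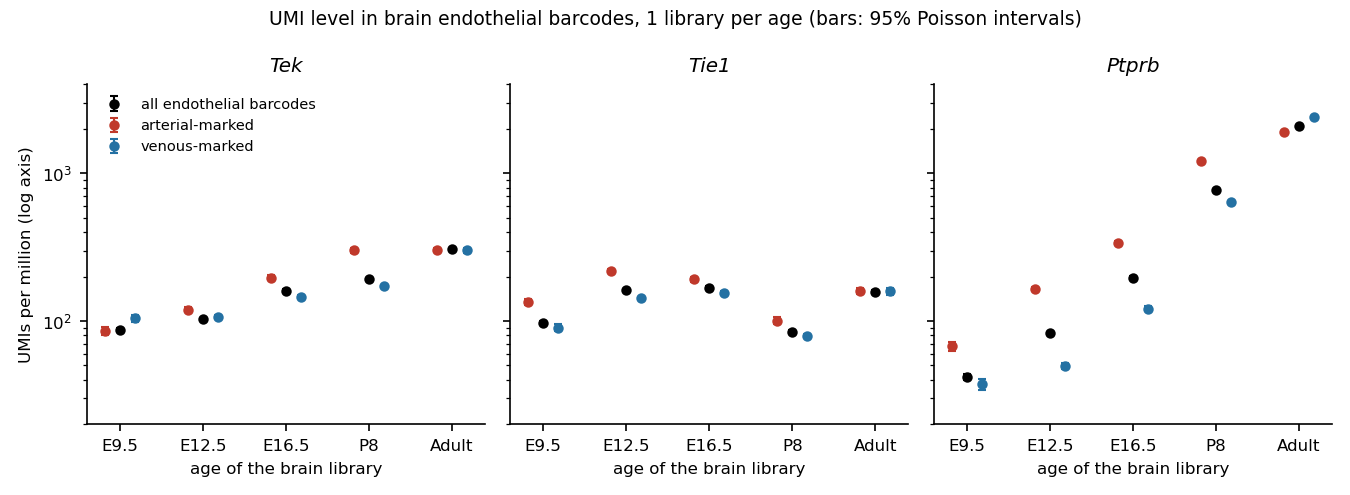
UMIs in CPM in brain endothelial barcodes (log axis) at each age, 1 panel per gene, for all endothelial barcodes and for those with arterial or venous markers. Bars are exact 95% Poisson intervals, which cover counting error only. Ptprb climbs from 41.7 to 2079 CPM, Tek from 87.4 to 307, and Tie1 dips to 84.2 at P8.

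Tek, the angiopoietin receptor, stood at 87.4 CPM in the E9.5 cells (95% Poisson interval 84.8 to 90.1, from 4178 UMIs), 103 in E12.5 (101 to 105), 160 in E16.5 (156 to 164), 193 in P8 (190 to 197) and 307 in the adult (300 to 314). No 2 of these intervals overlap, and they hold counting error alone, not the spread between animals. Within the pairs of like header, Tek was 1.55-fold higher at E16.5 than at E12.5 (1.5 to 1.60) and 1.59-fold higher in the adult than at P8 (1.54 to 1.63). The median gene moved 0.993-fold and 1.05-fold in the same pairs.

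Tie1, the partner receptor, stood at 96.6 CPM in the E9.5 cells (93.9 to 99.4, from 4617 UMIs), 161 in E12.5 (159 to 164), 167 in E16.5 (164 to 171), 84.2 in P8 (81.9 to 86.6) and 157 in the adult (152 to 162). E12.5, E16.5 and the adult thus lay close together, and P8 was the lowest of the 5. From E12.5 to E16.5 the level was 1.04-fold (1.01 to 1.07), and from P8 to the adult 1.86-fold (1.78 to 1.94). The P8 level was 0.503-fold that of E16.5 (0.485 to 0.522), in a pair whose headers, tissue and dissociation differ, and in which 11% of all genes were at least 2-fold higher and 7.67% lower.

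Ptprb, the phosphatase, stood at 41.7 CPM in the E9.5 cells (39.9 to 43.5, from 1991 UMIs), 82.2 in E12.5 (80.3 to 84.2), 196 in E16.5 (192 to 200), 771 in P8 (764 to 778) and 2079 in the adult (2061 to 2098). Each age lay well above the one before. Ptprb was 2.38-fold higher at E16.5 than at E12.5 (2.31 to 2.46) and 2.70-fold higher in the adult than at P8 (2.66 to 2.73). It was the only 1 of the 3 genes past 2-fold in either pair, in which 8.22% and 13.5% of all genes were at least 2-fold higher and 6.99% and 10.4% lower.

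The mural-marker sum was higher with age as well. The neural sum was 239 CPM in the E12.5 cells, 238 in E16.5, 447 in P8 and 652 in the adult. With barcodes holding 2 or more markers of another cell type (mural, neural, myeloid, mesenchymal or epithelial, but not erythroid or glial) left out, the adult level against E9.5 was 3.71-fold for Tek, 1.66-fold for Tie1 and 54.8-fold for Ptprb, as large as with them. Against P8 it was 1.77-fold, 1.92-fold and 2.95-fold. No doublet caller was run.

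The share of cells with a UMI moved the same way once each cell was thinned to 2000 UMIs, which leaves out the 429 E9.5, 178 P8 and 233 adult cells that are shallower. For Tek the thinned share was 15.1% in the E9.5 cells, 17.1% in E12.5, 24.3% in E16.5, 28.8% in P8 and 44.8% in the adult, and the unthinned share 42.2%, 58.0%, 66.9%, 68.5% and 74.7%. For Tie1 the thinned share was 17.7%, 27.4%, 28.4%, 16.6% and 25.5%, and the unthinned share 46.0%, 73.2%, 74.6%, 53.4% and 54.3%. For Ptprb the thinned share was 7.58%, 12.4%, 27.0%, 72.3% and 93.9%, and the unthinned share 23.6%, 41.8%, 64.1%, 92.9% and 98.0%. Nearly every adult brain endothelial cell thus held a Ptprb transcript even at reduced depth. Any of the 3 genes was found in 34.5% of thinned cells at E9.5 and in 96.8% in the adult.

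Barcodes with none of the 6 endothelial genes served as background. Choosing them for that favours low values, and what part of their UMIs is free RNA was not tested. In the adult, 140 such barcodes with a median of 2766.5 UMIs had Tek in 3.57%, Tie1 in 2.14% and Ptprb in 11.4%. At E9.5, 830 such barcodes with a median of 1746.5 UMIs had the genes in 4.10%, 6.63% and 2.05%. Their Ptprb level was 55.6 CPM in the adult and 7.96 CPM at E9.5, against 2079 and 41.7 CPM in the endothelial cells.

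Cells were also split by markers, as arterial-marked or venous-marked when they carried at least 2 markers of the list and more of it than of the other. The 9 arterial markers included Gja5 and Efnb2, and the 7 venous markers Nr2f2 and Ephb4. Both names stand for marker counts, not for clusters. There were 1568, 1779, 1245, 1129 and 1060 arterial-marked and 1350, 3125, 1942, 2784 and 931 venous-marked cells from E9.5 to the adult.

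Ptprb differed most between the 2 sets, and its order turned over in the adult. It stood at 67.3 CPM in arterial-marked and 37.3 in venous-marked cells of the E9.5 library, 165 and 49.3 in E12.5, 338 and 121 in E16.5, and 1210 and 640 in P8. In the adult it was 1910 in arterial-marked and 2426 in venous-marked cells, a ratio of 0.787 against 3.35 at E12.5. Tek was lower in arterial-marked cells at E9.5 (85.7 against 104 CPM) and higher at P8 (300 against 172). In the adult Tek was 303 against 302 CPM, with overlapping intervals. Tie1 was higher in arterial-marked cells up to P8, by 1.49-fold in the E9.5 cells, 1.53-fold in E12.5, 1.23-fold in E16.5 and 1.27-fold in P8, and stood at 159 against 158 CPM in the adult, again with overlapping intervals. These are single libraries, and the differences between ages were not tested.

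Other genes of the pathway were read from a list of 26, grouped by role. Against E9.5, 14 of the 21 with at least 10 CPM were at least 2-fold higher in the adult and 1 was lower, with a median of 3.16-fold. This pair differs in tissue and dissociation too. Of all genes 35% were higher and 21.5% lower, with a median of 1.29-fold. From E9.5 to E12.5, whose headers differ, 4 of 18 were higher (Angpt2, Grb14, Klf2 and Cdh5) and none lower, where 19.4% of all genes were higher and 8.96% lower. Cdh5 is 1 of the 6 genes that chose the cells, so its level and its place in these counts depend in part on that choice. From E12.5 to E16.5, 2 of 18 were higher (Grb14 and Klf2) and none lower, where 8.22% of all genes were higher and 6.99% lower. From E16.5 to P8, whose headers, tissue and dissociation differ, 4 of 21 were higher (among them Grb14, Pik3cb and Plcg1) and 1 lower (Itga5), where 11% and 7.67% of all genes were. From P8 to the adult 6 of 22 were higher and 1 lower (Angpt2), where 13.5% of all genes were higher and 10.4% lower.

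Among the ligands, Angpt2, the ligand that endothelial cells release, stood at 5.80 CPM in the E9.5 cells, 30.4 in E12.5, 35.6 in E16.5, 43.4 in P8 and 6.09 in the adult, which is 0.140-fold of P8. At E12.5 it was 52.3 CPM in arterial-marked and 13.9 in venous-marked cells, at E16.5 42.3 and 25.5, and in the adult 8.89 and 2.19. At E9.5 and P8 the intervals of the marked sets overlapped, and the ratio, 1.05 and 1.08, was 0.658 and 0.837 in thinned cells. Endothelial cells in neither set were above both sets in the P8 library, with 88.5 CPM against 39.3 arterial-marked and 36.4 venous-marked. In the E16.5 library they were also above both, with 54.6 CPM. Their level lay between the sets in E12.5 (37.3 CPM) and in the adult (7.36), and was 5.36 in E9.5. Angpt1, the activating ligand, lay between 0.398 and 3.43 CPM up to P8 and stood at 12.3 in the adult, 10.3-fold the P8 level. In cells thinned to 2000 UMIs it was 0.953 CPM at P8 and 5.46 in the adult, which is under 10 CPM. Thinning leaves out shallower cells and counts each cell alike, and why the thinned adult value was lower was not tested. The mural-marker sum in the same adult barcodes was 1180 CPM, and its part in the Angpt1 value was not tested. Angpt4, Lect2 and Svep1 were under 1 CPM at every age.

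Among adaptors and kinases, Grb14, an adaptor that binds Tek, stood at 2.74 CPM in the E9.5 cells, 10.6 in E12.5, 32.2 in E16.5, 98.7 in P8 and 114 in the adult. Dok2, a docking protein for Tek, was highest at E12.5 with 6.02 CPM and stood at 0.213 in the adult. The summed level of the 7 myeloid markers was also highest at E12.5, at 242 CPM against 9.30 to 62.8 at the other ages, and its part in the Dok2 value was not tested. Among downstream genes, Klf2, a flow-responsive transcription factor, stood at 117 CPM in the E9.5 cells, 602 in E12.5, 1641 in E16.5, 1145 in P8 and 1909 in the adult. Nos3, the endothelial nitric oxide synthase, was 37.2 CPM at E9.5 and 170 in the adult. Foxo1, a transcription factor restrained by Tek signalling through Akt, was 42.4 CPM at E9.5 and 98.0 in the adult. Itga5, an integrin subunit that can associate with Tek, was the gene lower against E9.5, with 52.6 CPM then and 14.4 in the adult. Cdh5, the junction partner of Ptprb and also 1 of the 6 genes that chose the cells, was 202 CPM at E9.5, 510 at E12.5 and 348 in the adult.

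Over the 15 groups of cells (5 ages by arterial-marked, venous-marked and other), Tek and Ptprb had a Pearson r of 0.932 on log2(CPM + 1). Tek and Tie1 had 0.248, and Tie1 and Ptprb 0.155. The groups of 1 age share a library, so these values describe 5 libraries. Of 8286 genes, those most like Tek were Tanc1 (0.958), Ptprr (0.956) and Lrp6 (0.954), those most like Ptprb were Atf7 (0.991), Lats1 (0.990) and Myo1d (0.989), and those most like Tie1 were Atp6ap1 (0.938), Dtx3 (0.929) and Plin3 (0.929). Ptprr, another receptor phosphatase, ends 0.57 kb from Ptprb on chromosome 10. Its level was 0.209 CPM in the E9.5 cells, 1.83 in E12.5, 11.7 in E16.5, 22.4 in P8 and 295 in the adult.

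The 3 loci were then read in the open-chromatin lists. Tek (gene 21687) lies at chr4:94739086-94874976, Tie1 (21846) at chr4:118471191-118489849 on the minus strand, and Ptprb (19263) at chr10:116275502-116389538, all in mm10. The windows of 50 kb either side also hold other genes, among them Ift74 and Eqtn at Tek, Elovl1, Cdc20 and 2610528J11Rik at Tie1, and Ptprr and Kcnmb4 at Ptprb, so a peak there is near the gene and not shown to act on it. In whole-tissue input, fewer endothelial nuclei and less open chromatin per nucleus cannot be told apart. The lists held 19464 to 144197 peaks each, with a mean of 65494 ± 29150 (SD, n = 37) in endothelial and 81150 ± 33544 (SD, n = 29) in input lists, so counts below are per 100000 peaks of the list.

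Per 100000 peaks of the list, the Tek and Ptprb loci held more peaks in endothelial than in input lists in nearly every organ, and the Tie1 locus less uniformly. At Tek, endothelial lists had 3 to 27 peaks (median 16) and input lists 0 to 21 (median 5). Per 100000 peaks of the list this was 27.2 ± 11.1 (SD, n = 37) against 8.70 ± 6.18 (SD, n = 29). Every endothelial list lay above every input list of its own organ and age in 15 of 15 organ-age groups. Groups were small: adult and E12 brain, adult and E12 heart and E12 trunk had 1 input list each.

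At Ptprb, endothelial lists had 7 to 28 peaks (median 18) and input lists 0 to 26 (median 12), or 27.2 ± 7.13 against 12.4 ± 4.10 per 100000 peaks. Per 100000 peaks, the endothelial lists lay above the input lists in 14 of 15 groups and overlapped them in adult brain, at 21.9 ± 5.84 (n = 2) against 19.0 (1 list). Before division, the endothelial mean was 9 peaks against 18 of input in adult brain, 13.3 against 13.7 in P6 brain and 21 against 26 in E12 heart. It was 7.5 in both kinds of list in adult lung, and higher in endothelial lists in the other groups. At Tie1, endothelial lists had 4 to 14 peaks (median 7) and input lists 2 to 16 (median 7), or 14.0 ± 5.15 against 10.6 ± 7.24. They lay above in 9 groups, overlapped in 5 and lay below in adult kidney, at 19.7 ± 4.64 (n = 2) against 26.8 ± 3.15 (n = 2).

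On the log2 scale with 0.5 peaks added, the difference between endothelial and input lists within organ and age was 1.96 for Tek (SE 0.161, adjusted p = 2.55e-15 by limma with Benjamini-Hochberg adjustment over 18852 genes). It was 1.17 for Ptprb (SE 0.125, adjusted p = 1.37e-11) and 0.70 for Tie1 (SE 0.117, adjusted p = 1.04e-06). The median gene stood at 0.186, and 45.2% of genes were higher in endothelial lists, so passing this test sets none of the 3 apart. By size of the difference Tek ranked 4, Ptprb 76 and Tie1 802 among the 18852 genes. Without division by list length, the Tie1 difference was 0.24 (adjusted p = 0.0800). The endothelial difference was not shown to depend on age: from P6 to the adult it changed by 0.58 for Tek (adjusted p = 0.602 by limma), by -0.15 for Tie1 (0.921) and by 0.57 for Ptprb (0.443).

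**Figure D2:**
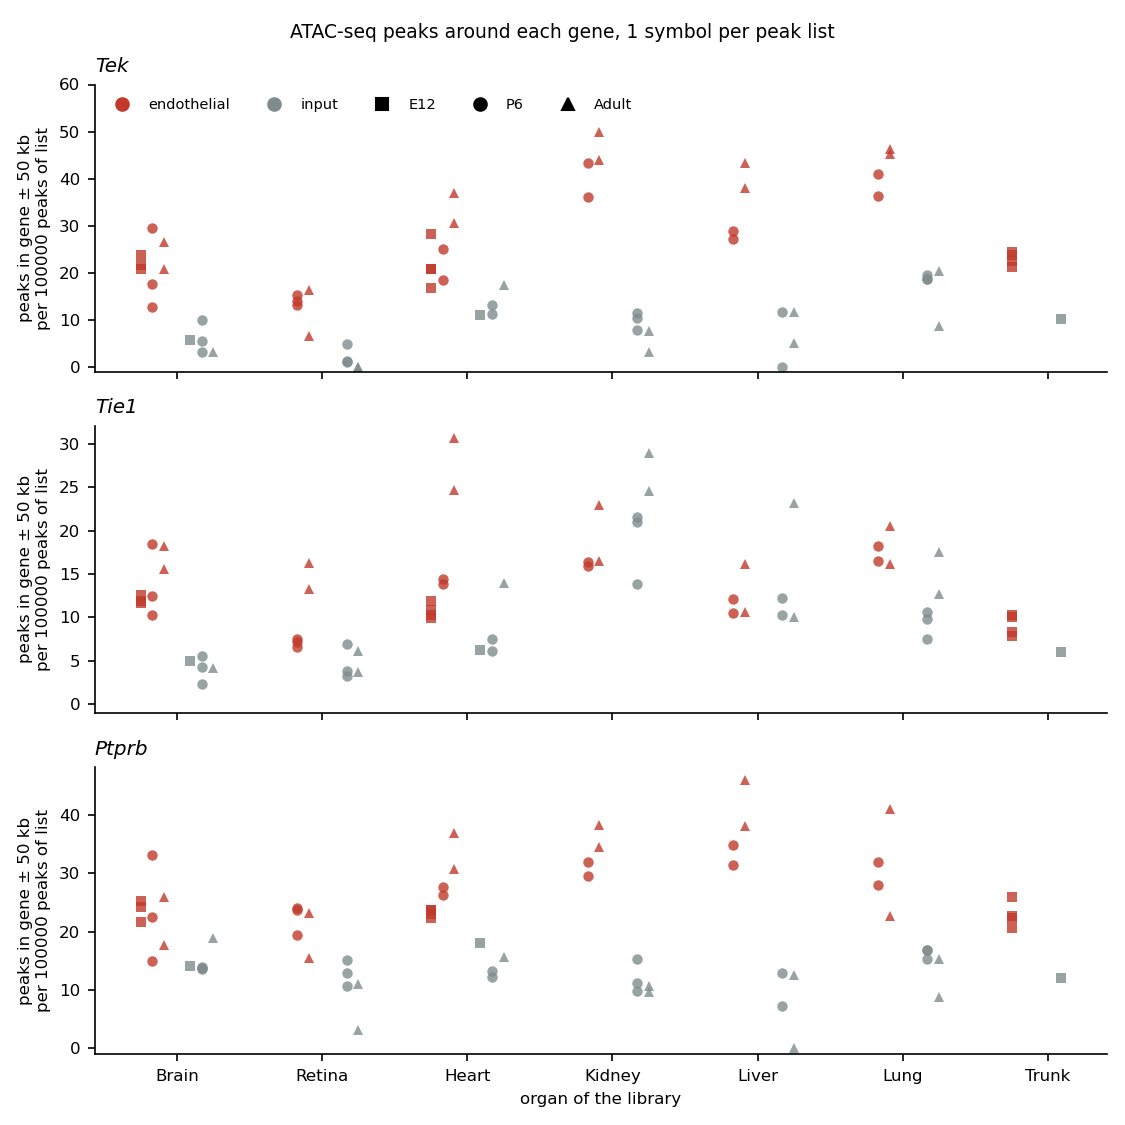
Peaks in the gene and 50 kb either side per 100000 peaks of the list, 1 panel per gene, by organ. Each point is 1 list, red for endothelial and grey for input, with squares for E12, circles for P6 and triangles for adult. The red points lie above the grey of the same organ and age throughout for Tek, and for Tie1 they overlap the grey in P6 kidney, liver, adult lung and P6 retina and lie under it in adult kidney.

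The density of Tek peaks by organ is given as a description, since organs were not tested against each other. The endothelial mean per 100000 was highest in adult kidney (46.8 ± 4.23, SD, n = 2) and adult lung (45.7 ± 0.735, n = 2) and lowest in adult retina (11.4 ± 6.79, from lists at 16.2 and 6.63) and P6 retina (14.1). These values depend on list length, and adult lung held the shortest list (19464 peaks). Before division, the mean number of Tek peaks was 11.5 in adult lung, 14.5 in adult kidney and 24.5 in P6 lung (38.6 per 100000). The adult retina input lists had no Tek peak.

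The start sites of Tek and Tie1 were open in nearly all endothelial lists and in part of the input lists. Promoters (250 bases before to 50 after the start, RefSeq, GRCm38.p6) are shown because the peaks cover them, read 5′ to 3′ along the gene's strand. Capitals mark GGAA and GATAA, the core letters bound by the ETS and GATA factor families, on either strand (TTCC and TTATC on the other). The Tek window is chr4:94739039-94739338 and the Tie1 window chr4:118489800-118490099. The Tek window is set on a transcript start that lies inside the gene as placed above, and the distances of regions given here are from the gene's own first base.
Tek: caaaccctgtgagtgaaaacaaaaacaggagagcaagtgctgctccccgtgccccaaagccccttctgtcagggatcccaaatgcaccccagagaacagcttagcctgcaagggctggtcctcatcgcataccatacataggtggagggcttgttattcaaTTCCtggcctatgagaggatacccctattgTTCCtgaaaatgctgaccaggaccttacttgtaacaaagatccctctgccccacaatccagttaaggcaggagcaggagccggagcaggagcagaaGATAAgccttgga
Tie1: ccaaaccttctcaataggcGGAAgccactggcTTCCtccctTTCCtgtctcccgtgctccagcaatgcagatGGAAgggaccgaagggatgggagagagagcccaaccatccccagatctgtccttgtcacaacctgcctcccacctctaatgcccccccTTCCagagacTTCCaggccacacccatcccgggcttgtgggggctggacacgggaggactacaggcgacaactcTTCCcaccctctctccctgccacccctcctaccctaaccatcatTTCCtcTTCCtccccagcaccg
Tek had 2 matches of GGAA and 1 of GATAA, and Tie1 had 9 of GGAA, of which 7 read GGAAG. Of 32851 promoters in the table, 96.0% hold GGAA, 71.4% GGAAG and 25.4% GATAA on either strand. The E-box CANNTG matched 2 times in Tek and 1 time in Tie1, against 72.3% of promoters with a match. The GC box GGGCGG (35.7% of promoters) and TATAAA (13.6%) had no match in either window. The GC content was 52% for Tek and 60.3% for Tie1, against a median of 52.7%. Ptprb was not matched in this table.

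The Tek promoter overlapped a peak in 35 of 37 endothelial and 14 of 29 input lists (adjusted p = 0.00325, exact permutation test within organ and age, two-sided, adjusted over 21272 promoters). The Tie1 promoter overlapped a peak in 37 of 37 endothelial and 20 of 29 input lists (adjusted p = 0.00496, same exact test). Both of the promoters matched were called, where 2.29% of all promoters were called endothelial and 8.12% input. Where a peak was present, the authors' fold enrichment over the caller's background had a median of 4.06 in endothelial and 3.49 in input lists for Tek, and of 6.84 and 5.59 for Tie1. Of the wider pathway, 23 promoters of 19 genes were in the table. Called endothelial was 1, of Akt1, with a peak in 20 of 37 against 3 of 29 lists. Called input were 2, of Svep1 (16 of 37 against 19 of 29) and Pik3r1 (7 of 37 against 23 of 29). Another promoter of Akt1 (20 of 37 against 7 of 29) and another of Pik3r1 (37 of 37 against 29 of 29) were not called.

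All peaks, those at promoters included, were merged into 514158 regions, of which 346278 were tested. The number of endothelial and input lists with a peak was compared by the same exact permutation test, adjusted over all regions. The regions that hold the starts of Tek and Tie1 are thus counted here again. Tek had 57 regions, of which 45 were tested, 19 were called endothelial (42.2%) and none input. In the direction of input 1 had an unadjusted p under 0.05, and of all 346278 regions 113455 had such a p in either direction. Ptprb had 80, with 12 of 60 called endothelial (20%) and 4 input (6.67%). Tie1 had 32, with 3 of 28 called in each direction (10.7%). With the 19000 top peaks of each list, endothelial calls were 6 of 19 tested at Tek, 7 of 19 at Ptprb and 3 of 12 at Tie1, and input calls were 0 at each of the 3 genes, where 9.47% of all 90669 regions were called endothelial and 4.43% input. With the full lists 5.59% of all regions were called endothelial and 11.9% input, beside which Tek and Ptprb held larger shares of endothelial regions and Tie1 a share nearer that of all regions.

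**Figure D3:**
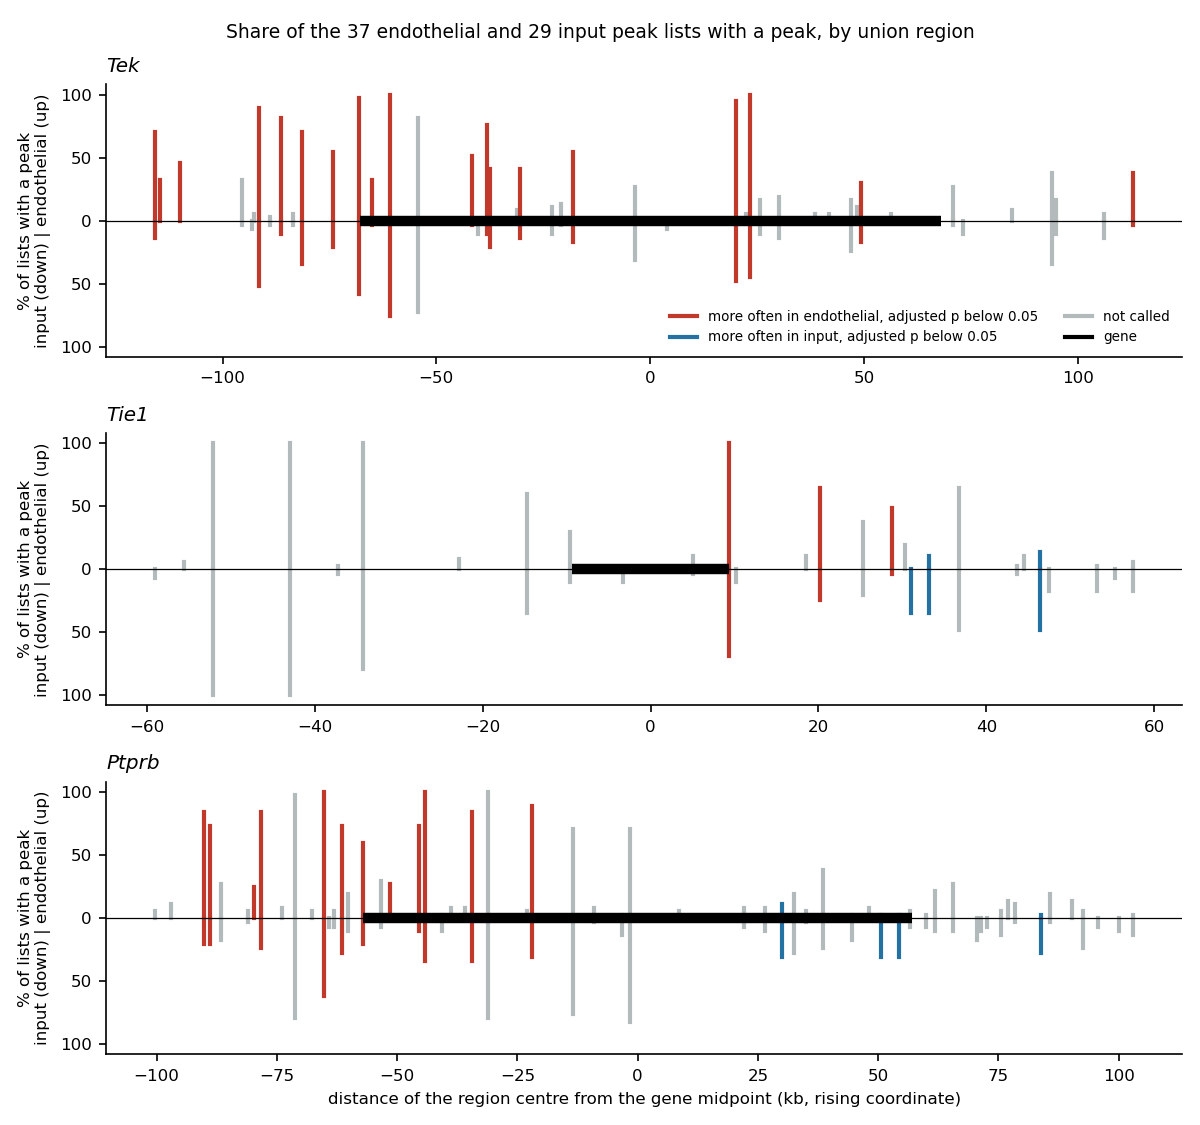
Share of the 37 endothelial lists (bars up) and of the 29 input lists (bars down) with a peak in each merged region, against the distance from the gene's midpoint in kb, 1 panel per gene. Red bars were called endothelial, blue bars input and grey neither, and the black bar is the gene. Tek carries 19 red and no blue region, Ptprb 12 red and 4 blue, and Tie1 3 of each.

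At Tek, 11 of the called regions lay within the gene and 8 outside, of which 3 overlapped a neighbouring gene. The region at chr4:94829782-94830979, inside the gene and 91.3 kb from its start, had a peak in 37 of 37 endothelial and 13 of 29 input lists (adjusted p = 2.84e-05, exact permutation test). None of the 5 brain or 5 retina input lists had it, and 5 of 5 lung input lists did. The region at chr4:94768470-94769232, 29.8 kb into the gene, had a peak in 28 of 37 against 3 of 29 (adjusted p = 1.39e-05).

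The region at chr4:94720266-94721039, 18.4 kb before the start, had a peak in 30 of 37 against 3 of 29 lists (adjusted p = 8.79e-06). Its 3 input lists were all lung. The region at chr4:94690637-94691844, within Ift74, had 26 against 4 (adjusted p = 0.000351). The region with the start itself, chr4:94738011-94739994, had 36 against 17 (adjusted p = 0.00631), and the endothelial list without it was 1 adult retina list.

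At Ptprb, 6 of the 12 regions lay inside the gene, and the other 6 all lay in Ptprr. The region at chr10:116287769-116288797, 12.8 kb into the gene from its lower-coordinate end, had a peak in 37 of 37 endothelial and 10 of 29 input lists (adjusted p = 1.08e-05, exact permutation test). As at Tek, none of the brain or retina input lists had it and 4 of 5 lung input lists did. Beside it, chr10:116286699-116287385 had 27 against 3 (adjusted p = 4.51e-05). Within Ptprr, chr10:116241781-116242852 had 31 against 6 (adjusted p = 1.91e-05) and chr10:116253821-116254692 had 31 against 7 (adjusted p = 0.000584).

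The region at the lower-coordinate end of Ptprb, chr10:116275066-116275904, had a peak in 22 of 37 against 6 of 29 lists (adjusted p = 0.00853), and it was found in 11 of 11 E12, 8 of 14 P6 and 3 of 12 adult endothelial lists. Between P6 and adult lists it was not called (adjusted p = 0.189, exact permutation test). The mean length of endothelial lists fell likewise, from 94182.5 peaks at E12 to 68291 at P6 and 35931 in the adult. The 4 input regions lay toward the other end of the gene, 3 within it and 1 past it. They were chr10:116382784-116383536 (1 of 37 against 9 of 29), chr10:116386409-116387221 (1 against 9), chr10:116416052-116416625 (1 against 8) and chr10:116361824-116363029 (4 against 9). All 4 endothelial lists with the last of these were brain lists.

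At Tie1, the region with the start, chr4:118489394-118490426, had a peak in 37 of 37 endothelial and 20 of 29 input lists (adjusted p = 0.00299, exact permutation test). It was found in 1 of 5 brain and 1 of 5 retina input lists, and in all input lists of heart, kidney, liver and lung. The other 2 lay before the start. The region at chr4:118508984-118509537, 19.4 kb away, had 18 against 1 (adjusted p = 0.000768), with 8 of 8 brain lists and none of 4 kidney or 4 liver endothelial lists. The region at chr4:118500091-118501272, 10.8 kb away, had 24 against 7 (adjusted p = 0.0105). The input regions were chr4:118511193-118511835 (0 of 37 against 10 of 29), chr4:118526226-118527594 (5 against 14, overlapping 2610528J11Rik) and chr4:118513483-118513971 (4 against 10). The first was found in kidney, liver and lung input lists.

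Brain and retina, whose vessels form a barrier, were compared with heart, kidney, liver and lung, with P6 and adult endothelial lists and age kept as strata. Lists of the same organ entered this test as separate samples. Its p-values thus measure the spread between lists and not between organs, and are smaller than a test of whole organs could give. Barrier lists were longer (63448 ± 25646 peaks, SD, n = 10, against 47048 ± 17865, n = 16). At Tek, 2 of 32 regions were called barrier and 3 peripheral. At Ptprb, 1 of 36 was called each way, and at Tie1 none of 13 barrier and 1 peripheral. Over all 150144 regions 9.45% were called barrier and 2.42% peripheral. With the 19000 top peaks of each list, which makes the lists equally long, no region was called barrier at any of the 3 genes, and peripheral calls were 5 of 17 tested at Tek, 0 of 9 at Tie1 and 1 of 16 at Ptprb. Of all 49007 regions then tested 8.01% were called barrier and 5.39% peripheral. None of the Tie1 regions was barrier at an unadjusted p under 0.05 either. Of all 150144 regions, 35558 had such a p in either direction. The read processing named in the files differed between the organ sets: of the peripheral organs, lung alone shared a kind of processing with the barrier lists, so for the others organ and processing cannot be told apart. A test with processing among the strata had a smallest p of 0.00794 and called none of the 150144 regions, so it says nothing of these 3 genes. With single lists left out, the barrier calls at Tek were 1 without adult retina 1 or any P6 retina list, the peripheral calls at Tek were 1 without P6 retina 2 or 3, and the barrier call at Ptprb was lost without any of 16 of the 26 lists.

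**Figure D4:**
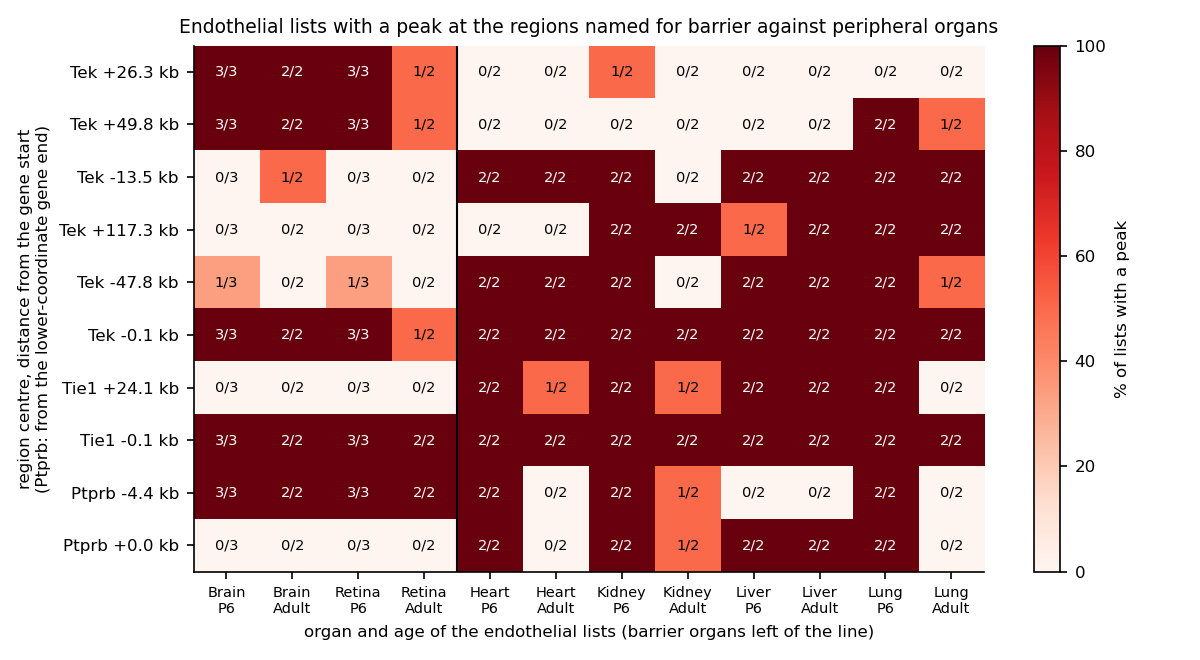
Share of P6 and adult endothelial lists with a peak, by organ, for the regions named for the comparison of barrier and peripheral organs, with the count of lists printed in each cell. Brain and retina stand left of the line. Rows give the distance of the region's centre from the gene start (for Ptprb, the lower-coordinate end), and the rows at -0.1 kb are the start regions of Tek and Tie1, which were not called and are filled in nearly every organ.

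Inside Tek, chr4:94765158-94765619 had a peak in 9 of 10 barrier and 1 of 16 peripheral lists (adjusted p = 0.00544, exact permutation test), and chr4:94788245-94789545 in 9 of 10 and 3 of 16 (adjusted p = 0.0271). Peripheral were chr4:94724909-94726293, 13.5 kb before the start (1 of 10 against 14 of 16, adjusted p = 0.0118), chr4:94690637-94691844 in Ift74 (2 of 10 against 13 of 16, 0.0357) and chr4:94856032-94856797 inside the gene (0 of 10 against 11 of 16, 0.0271). The last was found in kidney, liver and lung and in none of the heart lists.

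At Tie1, chr4:118465253-118466285, past the gene's far end, had a peak in 0 of 10 barrier and 12 of 16 peripheral lists (adjusted p = 0.00604, exact permutation test). At Ptprb, chr10:116270365-116271890 in Ptprr had 10 of 10 against 7 of 16 (adjusted p = 0.0443), and the lower-end region chr10:116275066-116275904 had 0 of 10 against 11 of 16 (adjusted p = 0.0118). At E12, 3 of 3 brain lists carried this Ptprb region, the Tie1 region and the Tek regions 13.5 kb before the start and in Ift74. The Tek region chr4:94856032-94856797 was in 0 of 3. The regions called barrier, 2 at Tek and 1 at Ptprb, were each in 4 of 4 E12 trunk lists and 3 of 3 E12 brain lists, but not in every E12 heart list. Over all ages, heart endothelial lists held chr4:94765158-94765619 in 2 of 8, chr4:94788245-94789545 in 1 of 8 and chr10:116270365-116271890 in 5 of 8. The difference between ages in brain was not tested, and of the endothelial lists those of E12 were the longest on average (94182.5 peaks).

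Between P6 and adult endothelium few regions differed, and the list length did: P6 lists had 68291 ± 19188 peaks (SD, n = 14) and adult lists 35931 ± 8577 (SD, n = 12). The Tek region chr4:94768470-94769232 had a peak in 14 of 14 P6 and 4 of 12 adult lists (adjusted p = 0.0328, exact permutation test), 1 of 32 tested. The region chr10:116243267-116243955 in Ptprr had 13 of 14 and 4 of 12 (adjusted p = 0.0433), 1 of 36. The Tek call was lost without adult heart 1, adult lung 2 or either adult retina list, and the Ptprr call without any of 18 of the 26 lists. With the 19000 top peaks of each list, or where a peak had to cover 50% of a region, no region of the genome was called P6 or adult, these among them. At Tie1 the exact permutation test called none of 13. At an unadjusted p under 0.05, 4 of 32 regions at Tek, 2 of 13 at Tie1 and 9 of 36 at Ptprb were toward P6. Of all 150144 regions tested, 27266 had such a p in either direction. No region of the 3 genes was called adult, and none had an unadjusted p under 0.05 in that direction. Over all regions 3.88% were called P6 and 0.00266% adult, and the calls at Tek and Ptprb were 1 region each.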

How the data were processed

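The authors' deposited peak lists were made with MACS2 2.1.2 (shift -100, extension 200, q 0.05 and 0.1 for broad regions, per the file headers), each list from 1 sample. Each deposited peak carries a pileup signal, a fold enrichment ratio and -log10 p and q values, as the authors' caller gave them. Reads were aligned with Bowtie 2 to mm10, per the submitters' processing notes. The single-cell matrices hold the authors' deposited UMI counts, which were summed over cells and scaled to 1000000 per library. Exact Poisson and binomial 95% intervals cover counting error only. Peaks of all 66 lists were merged into regions and those in at least 2 of the lists compared were tested by exact permutation of presence, with Benjamini-Hochberg adjustment at 0.05. Labels were permuted within organ and age for endothelial against input, within organ for adult against P6, and within age for barrier against peripheral. Window counts were tested with limma 3.58.1 in R 4.3.3, and other steps used Python 3.11.15, numpy 2.4.6, scipy 1.17.1 and pandas 2.3.3. Depth was 10.1 to 59.1 M tags per list (M, 1000000). The exact permutation test of regions and the limma test were checked on simulated data for endothelial against input only. The comparisons of adult with P6 and of barrier with peripheral lists were not simulated. The named regions are, per gene and direction, the called ones with the largest difference in share, at most 4, and the one holding the start. The 3 genes, the pathway and marker lists, the region rule and the likeness rule (the 3 genes with the highest r) were chosen with earlier results of these data known. The 54 RNA-seq samples were not analysed here.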

Additional observations from a re-analysis of the deposited data

Results flagged for a closer look

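Tie1 in adult kidney (2 endothelial and 2 input lists) was the group of organ and age in which all endothelial lists lay under all input lists: they had 7.04 fewer peaks per 100000 (endothelial minus input -7.04). The endothelial lists lay above in 9 groups and overlapped in 5, among which the mean difference was also negative in P6 kidney (-2.62) and adult liver (-3.25) and was 0.038 in P6 liver. The difference between organs was not tested.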

How the results depend on the processing

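No window or promoter difference between endothelial and input lists changed direction under any alternative. Counts of called regions moved most. Endothelial regions at Tek numbered 19 as reported, 6 with the 19000 top peaks per list, 7 where a peak had to cover 50% of a region, and 12 within 10 kb. At Tie1 they numbered 3, and 5 at a q of 0.001, 5 with regions in at least 5 lists and 1 within 10 kb. At Ptprb they numbered 12, and 7 with top peaks and 6 with 50% cover. Input regions at Tie1 numbered 3, and 1 at the stricter q and 0 with top peaks, with cover and within 10 kb. At Ptprb they numbered 4, and 0 with top peaks and 1 with cover. Over all regions, endothelial calls were 5.59% as reported, 5.89% at the stricter q and 9.47% with top peaks. They were 2.92% with cover and 10.96% with at least 5 lists. Input calls over all regions were 11.9%, 9.56%, 4.43%, 3.76% and 25.1% in the same order.

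Regions called P6 numbered 1 at Tek and 1 at Ptprb. At Tek they were 3 at the stricter q, 0 with top peaks or cover and 2 with at least 5 lists. At Ptprb they were 2, 0, 0 and 3 in the same order, 0 within 10 kb and 0 with read processing in the strata. With top peaks or cover no region of the genome was called P6 or adult. Of all regions 3.88% were called P6 as reported, 3.46% at the stricter q, 13.1% with at least 5 lists and 5.83% with read processing. Barrier regions at Tek (2) were 1 at the stricter q, 0 with top peaks, 1 with cover and 0 with read processing, and at Ptprb (1) 0 with top peaks, cover or read processing. Peripheral regions at Tek (3) were 5 with top peaks, 1 with cover, 5 with at least 5 lists, 1 within 10 kb and 0 with read processing. At Tie1 (1) they were 0 with top peaks, cover or read processing, and at Ptprb (1) 0 with read processing. The barrier test with read processing called 0 of all 150144 regions (smallest p 0.00794), so its zeros say nothing of these genes. The cause of the other changes was not tested. Barrier calls over all regions were 9.45% as reported, 8.79% at the stricter q and 8.01% with top peaks. They were 0.776% with cover and 18.6% with at least 5 lists. Peripheral calls were 2.42%, 2.82%, 5.39%, 0.526% and 5.96% in the same order. Without division by list length the Tie1 window difference was 0.24 (adjusted p = 0.0800, limma).

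Replicate numbers did not pair the lists: of 20 pairs of an endothelial and an input list with the same organ, age and number, 7 had a correlation of deviations above 0.1 (range -0.248 to 0.228), where groups of 2 lists give 1 value for both pairs. With the replicate number as a block, endothelial regions were 3 at Tek and 1 at Tie1, input regions 0 at Tie1 and 0 at Ptprb, P6 regions 0 and 0 (0 of all 150144 regions were called, smallest p 0.000488), barrier regions 1 at Tek and 0 at Ptprb, and peripheral regions 0 at Tek and 0 at Ptprb. The promoters, 6.47 lists (Tek) and 5.22 (Tie1) above the number expected, were then 5.5 (adjusted p = 0.0772) and 4.5 (0.115), exact permutation test. Over all regions the block gave 1.29% called endothelial, 0.816% input, 0.958% barrier and 0.376% peripheral. The window differences stayed called.

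With each list left out in turn, endothelial regions were 17 to 20 at Tek, 3 to 4 at Tie1 and 11 to 13 at Ptprb. P6 regions were 0 to 1 at Tek (0 without adult heart 1, adult lung 2 or either adult retina list) and 0 to 3 at Ptprb, where the call held at 1 without 6 of the 26 lists, was 3 without adult kidney 2, 2 without adult liver 2 and 0 without any of the other 18. Barrier regions were 1 to 2 at Tek (1 without adult retina 1 or any P6 retina list) and 0 to 1 at Ptprb (1 without 10 of the 26 lists). Peripheral regions at Tek were 1 to 4 (1 without P6 retina 2 or 3).

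Among UMI folds, Tek in the adult over E9.5 was 3.73 with 2 gate genes, 3.37 with 4, 3.71 without barcodes of other markers and 3.64 thinned. Over P8 it was 1.77 without those barcodes and 1.65 thinned, and E16.5 over E12.5 was 1.63 with 2 gate genes. Tie1 was 1.72 with 2 gate genes and 1.53 thinned over E9.5, 1.70 thinned over P8, and 1.09 for E16.5 over E12.5 with 2 gate genes. Ptprb was 53.6 with 2 gate genes, 54.8 without those barcodes and 45.3 thinned over E9.5. Over P8 it was 2.65 with haemoglobin and mitochondrial genes left out of the total, 2.95 without those barcodes and 2.30 thinned, and E16.5 over E12.5 was 2.50 and 2.68. The adult ratio of arterial-marked to venous-marked cells turned for Tek (0.986 with 3 markers, 0.989 thinned) and for Tie1 (0.968 with 3 markers). Each fold rests on 1 library per age. The peak lists differ in depth and length, and how far a missing peak reflects a shallow list was not tested.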
